A study of Mus musculus with 6 samples.

Results

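The regions described here are the places in the mouse genome where small RNA was newly high in Dnmt3l knockout (KO) spermatogonial cells by postnatal day 8 (P8). Deposited intervals that shared a base were merged into 99491 regions, and each region was represented by its interval with most reads over all 6 libraries. Levels are given in CPM, the reads of an interval divided by the library's total over these representative intervals and multiplied by 1e6. A region was taken when its mean KO P8 level was at least 10 CPM, at least 2 times the KO level at day 0 (P0) and at least 2 times the wild-type (WT) level at P8. In addition, WT P8 had to exceed 0.5 times WT P0, so that a fall in WT alone did not qualify, and KO P0 had to be under 2 times WT P0. These limits were met by 294 of the 99491 regions. The members were thus selected on the CPM values of all 6 libraries, so their differences between genotypes and ages are a description, and the test calls given for them below support nothing.

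All libraries came from male germ cells of C57BL/6 mice. The groups were WT P0 (1 library) and Dnmt3l KO P0 (1 library), made from enriched neonatal germ cells, and WT P8 (2 libraries) and Dnmt3l KO P8 (2 libraries), made from THY1+ cells, in which spermatogonial stem and progenitor cells are concentrated. Age and cell preparation therefore cannot be told apart, nor can fewer cells of a type and less small RNA per cell in these bulk samples. Small RNA of 15 to 36 nt was sequenced, and the labels do not say whether the P8 replicates were separate animals or pools, so their spread may be technical. The intervals carry coordinates of the build GRCm39 and no gene or repeat name. Annotation of that build was not used here, so whether an interval lies in a gene, an exon or a repeat was not analysed, and no marker gene could be used to check the cell type.

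DNMT3L has no catalytic activity of its own but stimulates de novo DNA methyltransferases, and it is needed in prospermatogonia for the methylation of transposons and imprinted regions. PIWI-interacting RNAs (piRNAs) are germline small RNAs that guide PIWI proteins to transposon transcripts, and in fetal and neonatal male germ cells they also direct DNA methylation to transposon copies. They come from long precursor transcripts that are cut into many pieces, so a piRNA-producing locus can span many kilobases, whereas a microRNA comes from a short hairpin. Reads of the sequenced lengths can include both classes, and they were not split by class here.

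The 6 libraries held 3930406 to 5549944 reads in the representative intervals, so 10 CPM corresponded to between 39.3 and 55.5 reads. Within each genotype the 2 P8 libraries differed beyond counting noise, with a chi-square of 3.76 per degree of freedom in WT and 4.31 in KO. Each was counted as a replicate, as labelled, but this spread cannot show whether they were separate animals or pools. In all, 8219 regions reached 10 CPM in KO P8, and 1316 of these were at least 2 times WT P8. The largest share of the 1316, 889 regions, were in WT P8 at 0.5 times the WT P0 level or less. Another 58 kept their level in WT but were already at least 2 times higher in KO than in WT at P0, and 75 met neither description but had a KO P8 level under 2 times KO P0. The remaining 294 are the newly gaining regions.

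The gaining regions took a much larger share of the KO P8 libraries than of the others. They held 13.5% of the representative reads in each KO P8 library, against 3.37% and 3.63% in the WT P8 libraries, 2.64% in KO P0 and 2.11% in WT P0. A single region on chromosome 3 made up 29.0% of the members' summed CPM in KO P8, and the 10 highest made up 61.5%. Without the chromosome 3 region the shares were 9.51% and 9.66% in KO P8, 2.47% and 2.67% in WT P8, 2.11% in KO P0 and 1.71% in WT P0. Both KO P8 libraries had larger shares than the other 4, with and without that region. The rule sets this direction for the summed P8 means, so the shares are only a description.

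At P0 the median member had 13.1 CPM (WT) and 13.9 CPM (KO). At P8 the medians were 18.6 and 19.1 CPM in the WT libraries and 67.1 and 66.3 CPM in the KO libraries. KO P8 means ran from 10.3 to 39227 CPM, with 37 members under 20 CPM, 118 over 100 CPM and 19 over 1000 CPM. The ratio of KO P8 to WT P8 had a median of 3.04 and quartiles of 2.32 and 5.00. It was under 3 in 145 members, over 5 in 74 and over 10 in 36. The ratio of KO P8 to KO P0 had a median of 5.00.

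**Figure D1:**
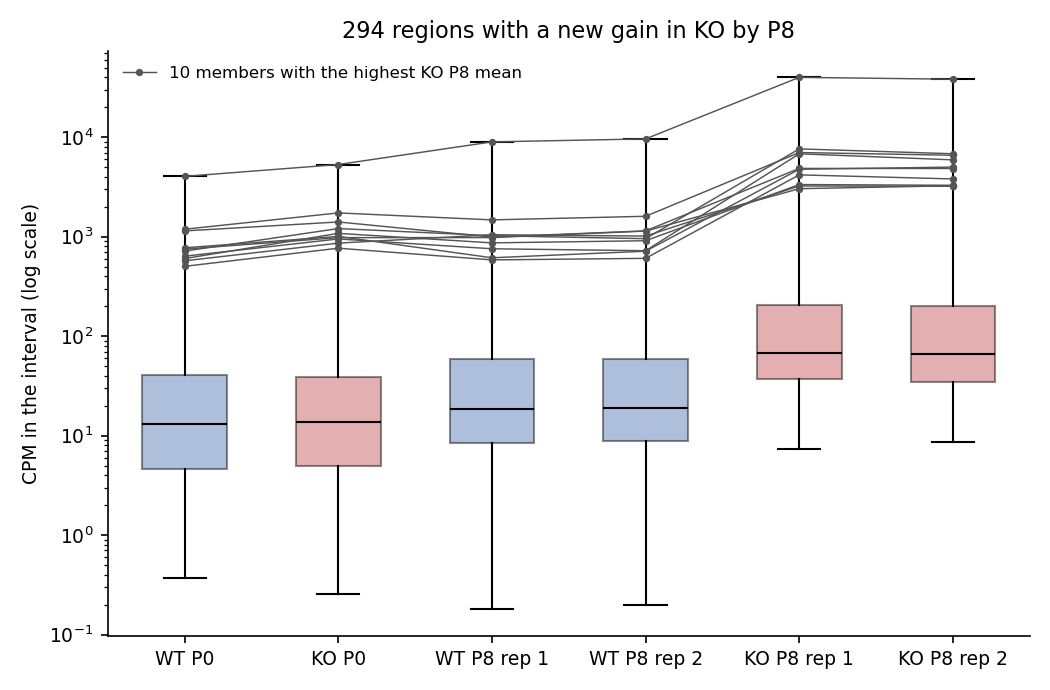
CPM of the 294 gaining regions in each library on a log scale: boxes span the quartiles with the median as a line, whiskers reach the lowest and highest member, and grey lines join the 10 members with the highest KO P8 mean. The medians lie between 13.1 and 19.1 CPM in the P0 and WT P8 libraries and at 67.1 and 66.3 CPM in the KO P8 libraries.

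In edgeR's quasi-likelihood test with Benjamini-Hochberg adjustment, 23.6% of the 17904 regions tested at P8 were called higher in KO and 21.6% lower. All 294 members had enough reads to be tested, and 291 were called higher and 0 lower (0 lower also with DESeq2, and 0 at an unadjusted p under 0.05). In a fit to all 6 libraries, in which each single P0 library is assumed to vary like the P8 pairs, 26.8% of 29099 regions were called higher in KO P8 than in KO P0 and 32.3% lower, and 291 members were called higher and 0 lower (0 lower with DESeq2, 0 at an unadjusted p under 0.05). The rule used both contrasts, so these counts of members say no more than how they were chosen.

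How WT itself moved with age was only bounded from below by the rule, and it split the members. In 188 members WT P8 was between 0.5 and 2 times WT P0, and in the other 106 WT P8 was at least 2 times WT P0 as well. Among the 188, median levels were 16.2 CPM in WT P0, 16.8 in KO P0, 17.5 in WT P8 and 68.0 in KO P8. Among the 106, they were 7.76, 8.27, 23.0 and 66.7 CPM in the same order. A KO to WT ratio over 5 at P8 occurred in 63 of the 188 and in 11 of the 106. Since the split is by WT P8 over WT P0, and KO P0 is bounded by WT P0, these differences between the 2 kinds are partly set by the split and are only a description.

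This split depends on the scaling. With factors from the trimmed mean of M-values (TMM) in place of library totals, WT P8 was at least 2 times WT P0 in 169 members instead of 106, and WT P8 lay below WT P0 in 24 members instead of 84. TMM moved the median log2 change of all regions tested with age from -1.37 to -0.51 in WT and from -1.09 to -0.31 in KO, with less change at P8 (KO against WT, -0.07 to -0.01). In edgeR's quasi-likelihood test with TMM, 29.3% of the 29099 regions were called higher in WT P8 than in WT P0 and 38.8% lower, and 223 members were called higher and 0 lower (180 and 0 with DESeq2, and 0 lower at an unadjusted p under 0.05). With library totals the members' counts were 144 higher and 32 lower. The rule kept out regions with WT P8 at 0.5 times WT P0 or less, and there is 1 WT P0 library, so nothing is read from these counts either. The share of higher calls among all calls with age was 43.0% in WT and 45.4% in KO with TMM. With library totals it was 25.4% in WT and 26.2% in KO.

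**Figure D2:**
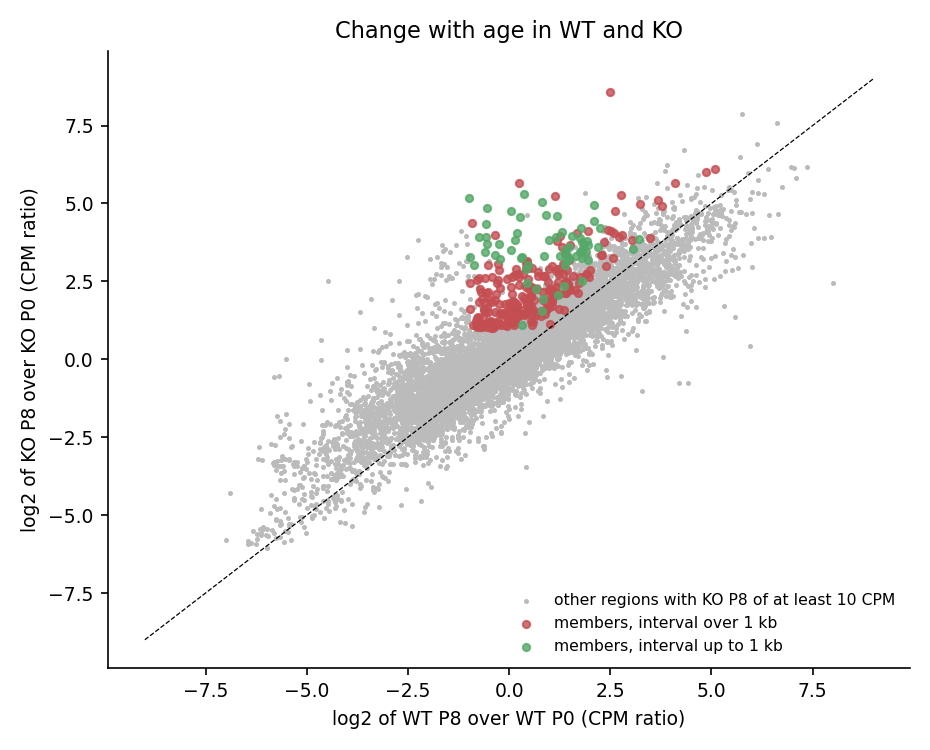
Change with age in WT (x axis) and in KO (y axis), each as the log2 ratio of the P8 mean to P0 in CPM; grey points are other regions with KO P8 of at least 10 CPM and a read in every group, coloured points the 294 members by the length of their interval, and the dashed line marks equal change. Members lie above the line by the rule; 188 have a WT ratio between 0.5 and 2 and 106 a WT ratio of at least 2.

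The most abundant member by far was chr3:51130676-51159683, an interval of 29.0 kb. Its P0 level was 4047 CPM in the WT library and 5324 CPM in the KO library. At P8 it was 8992 and 9639 CPM in the WT libraries and 40088 and 38367 CPM in the KO libraries. The KO P8 libraries were thus 4.21 times WT P8 on average and 7.37 times KO P0, while WT P8 was 2.30 times WT P0. Per length it was also the highest member, with 1352 CPM per kb in KO P8.

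In the next 3 members by KO P8 level, WT P8 was 1.16 to 1.38 times WT P0. At chr5:105843641-105893525 the P0 libraries had 717 CPM (WT) and 1209 CPM (KO), the WT P8 libraries 1024 and 957 CPM, and the KO P8 libraries 7648 and 6832 CPM. At chr16:36585434-36591286 the levels were 1190 and 1736 CPM at P0, 1477 and 1606 CPM in WT P8 and, in KO P8, 7027 and 6599 CPM. This was 1 of the most densely covered members, with 1164 CPM per kb in KO P8. At chr7:78984427-78999362 they were 637 and 951 CPM at P0, 757 and 723 CPM in WT P8 and 6824 and 5933 CPM in KO P8, the widest KO to WT ratio among the 10 most abundant members (8.62). In each of these 3 both KO P8 libraries lay above the other 4 libraries.

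In chr1:161901185-161928718 and chr13:36173224-36199063 the WT P8 mean was 0.859 and 0.934 times WT P0 by these totals, and TMM factors raise such age ratios. The first had 774 CPM in WT P0, 1007 in KO P0, then 615 and 715 (WT P8) and 4773 and 5016 (KO P8). The second had 1144 CPM in WT P0, 1408 in KO P0, then 992 and 1146 (WT P8) and 4865 and 4853 (KO P8). The KO P8 libraries were several times above every other library in both intervals.

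The other 4 of the 10 had lower KO P8 levels, with ratios to WT P8 of 6.72 at chr4:102697376-102746987 (KO P8 4002 ± 266 CPM, SD, n = 2), 3.73 at chr9:98624872-98665923 (3319 ± 39.8), 3.13 at chr19:41450656-41486151 (3231 ± 15.9) and 2.97 at chr13:17111474-17122431 (3150 ± 152). The WT P8 means of these 4 were 596 ± 15.1, 890 ± 31.3, 1032 ± 22.5 and 1061 ± 113 CPM in the same order. Across the 10 most abundant members, KO P8 was 3.07 to 7.37 times KO P0, and WT P8 was 0.859 to 2.30 times WT P0. At P0 the single KO library was above the single WT library at all 10, by 1.23 to 1.79 times, within the limit of 2 set by the rule. Over all 294 members KO P0 was above WT P0 in 182 and below in 112, with a median ratio of 1.135.

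The 10 highest ratios of KO P8 to WT P8 were of another kind: 8 of the 10 were intervals under 1 kb, and their KO P8 levels were moderate. The highest was at chr2:17756439-17756669, a 231 bp interval with 2.40 and 2.29 CPM at P0 (WT and KO), 1.62 and 0.792 CPM for WT P8, and 87.6 and 78.1 CPM for KO P8. The ratio was 68.6, with a 95% counting interval of 39.3 to 128 (exact binomial), which, like the others given here, covers counting error only. The rule's limit on WT was met narrowly here, at a WT P8 to P0 ratio of 0.502. The next was chr11:29075348-29075560, a 213 bp interval with 6.84 and 8.396 CPM at P0, 5.05 and 4.36 CPM (WT P8), and 259 and 228 CPM (KO P8), a ratio of 51.8 (39.0 to 69.8). Both KO P8 libraries were over 20 times above all other libraries in each of these intervals.

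Of the remaining 8, 2 lay next to each other on chromosome 14. The interval chr14:6571001-6573488 had 3 reads (WT) and 2 reads (KO) at P0, 4 and 3 for WT P8, and 130 and 99 for KO P8, a ratio of 39.0 (18.5 to 97.7). The interval chr14:6586085-6590007 had 3 reads (WT) and 1 read (KO) at P0, 18 and 15 for WT P8, and 465 and 403 for KO P8, a ratio of 31.3 (22.1 to 45.7). Together they went from 3.76 ± 0.282 CPM (WT P8) to 123 ± 13.4 CPM (KO P8), a 32.6-fold difference with SDs over 2 libraries each. The other 6 were the intervals chr8:56001139-56001306 (36.2), chr1:148361945-148362227 (31.7), chr2:3488071-3488439 (30.5), chr13:63369402-63369679 (29.99), chrX:112820554-112820994 (29.0) and chr3:68022500-68023415 (26.9), where the number is the KO P8 to WT P8 ratio. Their WT P8 means lay between 0.369 and 5.07 CPM, so these ratios rest on few WT reads. For example, 4 reads in WT P8 at the chromosome 13 interval give a counting interval of 11.1 to 110.

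The 5 largest ratios of KO P8 to KO P0 started from 1 to 38 reads in KO P0. The interval chr14:6586085-6590007 went from 1 read to 97.2 ± 8.75 CPM (SD, n = 2), a ratio of 382 with a 95% counting interval of 68.4 to 15109. In chr2:45597542-45606828 KO went from 2 reads to 34.7 ± 3.74 CPM, 68.2-fold (18.7 to 566), and WT from 2 reads to 12.6 ± 0.223 CPM, 34.2-fold (9.28 to 285). At chr12:79114743-79117022 the KO age ratio was 63.7 (17.5 to 530) and the WT age ratio 29.1 (9.85 to 143). The P8 level there was 32.4 ± 8.83 CPM in KO, against 16.1 ± 3.46 CPM in WT. The interval chr14:6571001-6573488 had an age ratio of 50.4 in KO (13.8 to 419), and chr9:98200187-98212590 had 50.3 in KO, from 38 to 2195 and 2150 reads, and 17.3 in WT. In the chromosome 2, chromosome 12 and chromosome 9 intervals WT P8 was thus also many times WT P0.

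The members were short more often than other regions with KO P8 of at least 10 CPM, but less often than all regions with a read. The representative interval was up to 1 kb long in 64 members (21.8%) and over 5 kb in 192 (65.3%), with a range of 121 to 68939 bp and a median of 11672 bp. Among the 7925 other regions with KO P8 of at least 10 CPM, 3.62% were up to 1 kb and 87.0% over 5 kb, with a median of 19168 bp. Their median KO P8 level was lower, at 29.2 CPM against 67.6 CPM in the members. Over all 64645 regions with a read, 35.5% were up to 1 kb and 41.5% over 5 kb. Of the 889 regions with WT P8 at 0.5 times WT P0 or less, 6.52% were up to 1 kb, as were 20.7% of the 58 regions already higher in KO at P0. These shares are a description, and no test was run on them. The shortest member, chr3:116612412-116612532 (121 bp), had 4.62 and 5.85 CPM at P0, 6.67 and 4.75 CPM (WT P8), and 62.5 and 49.7 CPM (KO P8). The longest, chr10:87694860-87763798 (68.9 kb), had 7.40 and 5.597 CPM at P0, 3.96 and 5.35 CPM (WT P8), and 10.2 and 12.6 CPM (KO P8).

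Short members had larger ratios from lower starting levels. Members up to 1 kb had a median KO to WT ratio at P8 of 5.22 (quartiles 4.22 and 11.3), against 2.73 (2.28 and 3.65) in members over 5 kb. Where WT P8 is low, the minimum of 10 CPM in KO P8 can require a ratio above 2. This contrast is therefore partly set by the rule and is only a description. Median levels of the members up to 1 kb were 3.14 CPM in WT P0, 3.82 in KO P0, 7.79 in WT P8 and 47.6 in KO P8. In members over 5 kb these were 22.4, 24.6, 29.1 and 106 CPM. Per length the order was the other way, with a median of 159 CPM per kb in KO P8 in the short members and 5.92 CPM per kb in the long ones. Of the 64 short members, 52 were regions of a single deposited interval, whereas regions of the long members held a median of 44 overlapping intervals.

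Many short members had a like ratio at P8. Among the 64, 24 had a KO to WT ratio at P8 between 3.8 and 5.8, a range set after the values were seen, which fixes their likeness in that ratio, while 10 were under 3 and 13 over 20. These 24 intervals of 177 to 559 bp (median 244 bp) lay on 14 chromosomes, and 21 were regions of a single interval. Their levels ran from 1.48 to 5.36 CPM in WT P0 (median 3.70) and from 1.02 to 7.38 in KO P0 (4.20). At P8 they ran from 5.05 to 18.4 CPM (12.1) and 7.13 to 15.8 CPM (11.6) in the WT libraries, and from 32.4 to 73.6 CPM (53.7) and 30.7 to 76.5 CPM (52.7) in the KO libraries. WT P8 was 2.24 to 4.74 times WT P0 in the 24, and KO P8 lay above WT P8 in all pairs of libraries. The range from 3.8 to 5.8 held 29 of the 351 short regions with KO P8 of at least 10 CPM, including these 24. Whether the 24 share a sequence, so that the same reads were counted at several of them, was not tested.

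**Figure D3:**
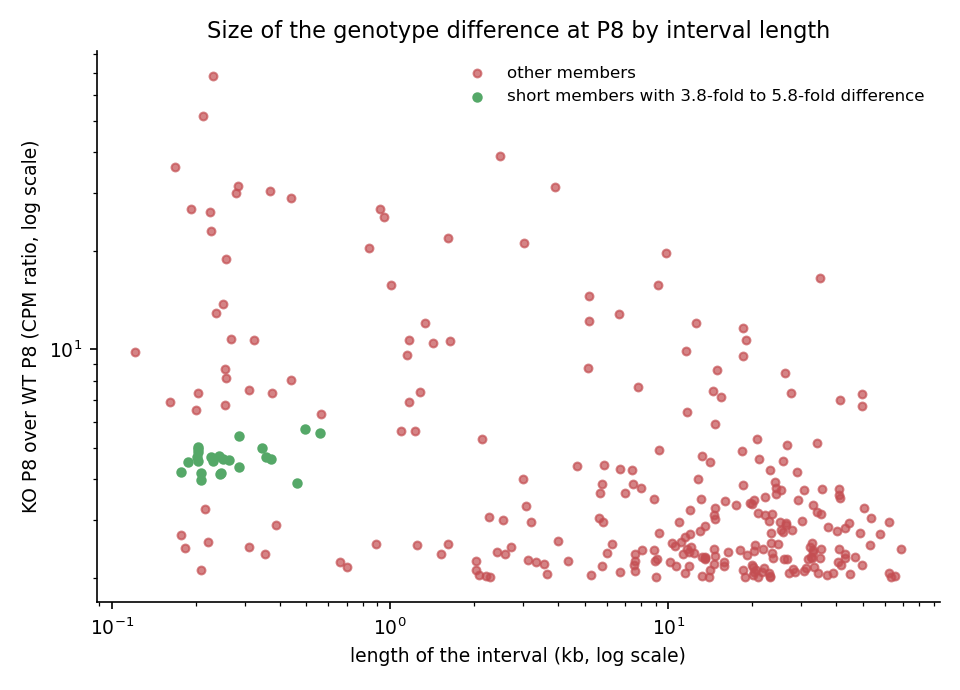
KO P8 to WT P8 ratio of each of the 294 members (y axis, log scale) against the length of its representative interval in kb (x axis, log scale); green points are the 24 short members with ratios between 3.8 and 5.8. Members over 5 kb crowd between 2.28 and 3.65 (quartiles), and the highest ratio, 68.6, belongs to an interval of 231 bp.

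Deposited intervals inside a long member show where along it the small RNA was gained. Non-overlapping inner intervals of at most 0.5 times the member's length were taken, most reads first, together with the rest of the member. For 112 members at least 2 such parts had 100 or more reads over the P8 libraries. In 56 of these every part was at least 2 times higher in KO than in WT, and in 25 the lowest part was under 1.5 times. In 13 the KO mean of the lowest part was below WT. Both KO P8 libraries lay below both WT P8 libraries in that part in 11 of the 13, and the libraries overlapped in the other 2. The median of the highest over the lowest ratio within a member was 1.51. The parts are pieces of intervals that the rule chose for a difference of at least 2 times. No intervals of other regions were divided in this way, so these counts are only a description.

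The parts of the chromosome 5 member differed. Its inner interval chr5:105858979-105880084 had 854 ± 39.8 CPM (WT P8) and 6477 ± 558 CPM (KO P8), a ratio of 7.59, with SDs over 2 libraries here and below. The interval chr5:105844194-105851583, in the same member, had 48.4 ± 5.71 CPM (WT P8) and 49.9 ± 3.88 CPM (KO P8), a difference smaller than the spread between replicates. What was left outside its inner intervals had 79.98 ± 0.794 CPM (WT P8) and 709 ± 12.3 CPM (KO P8), a ratio of 8.87, so the gain was not limited to the long stretch. In the chromosome 4 member the gain lay in the 18.2 kb of chr4:102728414-102746640, with 549 ± 15.5 CPM (WT P8) and 3966 ± 266 CPM (KO P8). At the other end, chr4:102697753-102714011 had 28.0 ± 0.800 CPM (WT P8) and 19.2 ± 2.27 CPM (KO P8). These parts and those below were picked after their values were seen.

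In the chromosome 3 member most reads, and most of the gain, lay outside its largest inner interval. The 14.044 kb of chr3:51133344-51147387 had 131 CPM (WT) and 105 CPM (KO) at P0, and 1610 ± 31.6 CPM (WT) and 2535 ± 93.2 CPM (KO) at P8, a ratio of 1.57. The rest of the member had 3915 CPM (WT) and 5218 CPM (KO) at P0, and 7697 ± 488 CPM (WT) and 36663 ± 1125 CPM (KO) at P8, a ratio of 4.76. The chromosome 16 member gained 11.8-fold over WT in chr16:36589019-36590538 (198 ± 3.50 and 2333 ± 91.0 CPM) and 11.7-fold in chr16:36585497-36585637, a 0.141 kb interval at its other end, against 3.20-fold in the rest. In the chromosome 9 member, chr9:98648815-98650094 was 12.4-fold higher in KO P8 (113 ± 4.35 and 1398 ± 101 CPM) and the rest 2.41-fold. In both members the short stretch had a several times larger ratio than the rest.

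Further divided members had a lower level in KO in one part. At chr2:166622967-166676558 the part chr2:166647517-166673531 had 43.6 ± 3.05 CPM (WT P8) and 409 ± 26.1 CPM (KO P8), and the part chr2:166627527-166643582 had 99.3 ± 10.5 and 51.3 ± 6.90 CPM. At chr15:74530894-74551536 the part chr15:74541078-74548157 had 49.8 ± 7.35 and 149 ± 8.76 CPM, and the rest 23.7 ± 2.95 and 5.94 ± 0.541 CPM. In both, the libraries of the 2 genotypes did not overlap in either part, with opposite directions.

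**Figure D4:**
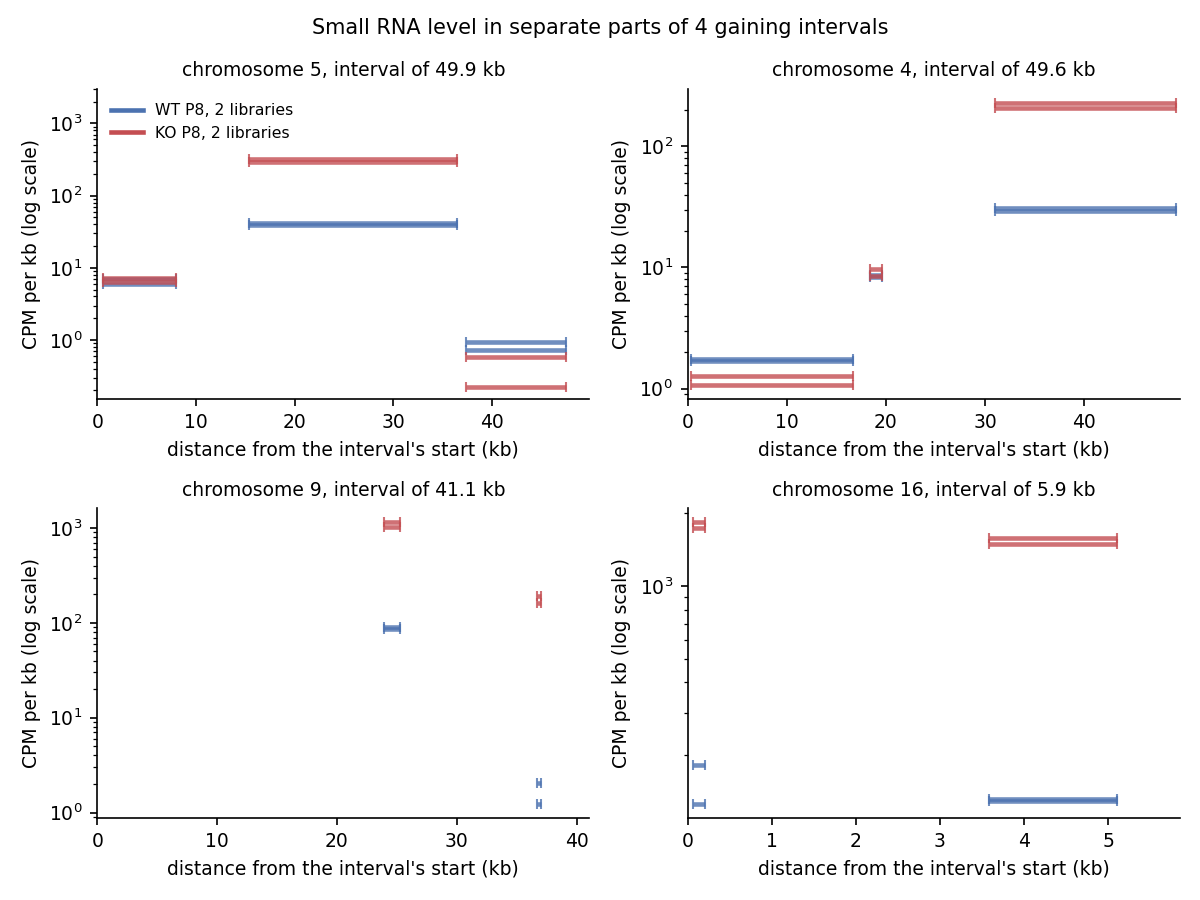
Level in CPM per kb (y axis, log scale) of separate inner intervals, drawn as horizontal lines at their distance in kb from the start of the representative interval (x axis), for members on chromosomes 5, 4, 9 and 16; each line is 1 P8 library, blue for WT and red for KO. On chromosomes 5 and 4 the long stretch with most reads is 7.59 and 7.22 times higher in KO while the other stretches drawn are not; reads outside the stretches drawn, 8.87 times higher in KO in the chromosome 5 member, are not shown. On chromosomes 9 and 16 the short stretches are 11.7 times higher or more.

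Reads of the same merged region that lay outside the representative interval were not used by the rule. They come from the same locus and the same libraries, so they are no independent replicate. Such intervals held at least 10 P8 reads in 92 members. Both KO P8 libraries were above both WT P8 libraries in 54 of the 92 (58.7%) and below both in 21, with a median KO to WT ratio of 1.28. Over all 3417 regions with KO P8 of at least 10 CPM and as many outside reads, 25.7% were above in this sense. In 1386 of the 3417 both KO P8 libraries were below, and the median ratio was 0.892.

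Some regions gained outside the representative interval as well. Around chr15:97660267-97696073 the outside intervals had 25.04 ± 4.07 CPM (WT P8) and 159 ± 13.5 CPM (KO P8), a ratio of 6.34, beside 70.2 ± 0.421 and 263 ± 0.268 CPM in the representative interval. Around chr8:11050429-11073703 they had 37.1 ± 1.28 and 136 ± 6.42 CPM (3.66 times). Of the 10 most abundant members, 8 had such outside reads. Over all 3417 regions compared above, both KO P8 libraries were below both WT P8 libraries in 1386. Among the 8 members this held in 6 (ratios of 0.413 to 0.819), and both were above in 2 (2.33 and 2.76). For example, beside chr9:98624872-98665923 the outside intervals had 218 ± 6.54 CPM (WT P8) and 90.02 ± 4.71 CPM (KO P8). Beside chr7:78984427-78999362 they had 786 ± 18.5 and 644 ± 17.6 CPM. In the P0 libraries the outside intervals of both had at most 16.3 CPM. These 4 regions were picked after their values were seen.

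Neighbouring regions had smaller differences than the members, which is partly set by the rule, since members were chosen for a difference of at least 2 times. Within 50 kb, 236 members had 398 nearest neighbours that were not members themselves and had at least 10 P8 reads. Their median KO to WT ratio at P8 was 1.05, and 20.6% were at least 2-fold higher in KO. With neighbours that were members kept in, the median was 1.08 and the share 23.7% over 414 neighbours. The neighbours of all regions with KO P8 of at least 10 CPM, members included, had a median of 0.897 and a share of 11.5%. Of these 14122 neighbours, 148 were members. Over all 28244 regions with 10 P8 reads the values were 0.953 and 15.4%. The members lay on all 19 autosomes and the X chromosome, and 0 were on unplaced scaffolds. Chromosome 2 held most, with 31 (10.5%, against 7.17% of the other regions at that level), and chromosome X held 11 (3.74%, against 1.60%). Over all regions with a read the chromosome X share was 3.01%. It was 5.17% of the 58 regions already higher in KO at P0, and 6.67% of the 75 with KO P8 under 2 times KO P0.

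Only 38 of the 294 members had another within 200 kb, in 18 runs of 2 or 3. The run with the highest level, chr18:38276932-38678640, held 3 members that summed to 858 ± 19.1 CPM (WT P8) and 2407 ± 33.5 CPM (KO P8), with SDs over 2 libraries. A run of 3 on chromosome 10, chr10:58908364-59222966, summed to 79.2 ± 1.38 and 458 ± 16.5 CPM, a 5.78-fold difference. The 2 members at chr6:112221943-112261876 had 38.6 CPM (WT) and 34.6 CPM (KO) at P0, and 521 ± 26.5 CPM (WT) and 1070 ± 53.0 CPM (KO) at P8. The first of these runs was 2.80-fold and the last 2.05-fold higher in KO, and these runs were picked after their values were seen.

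The P8 replicates were close at most members, and 3 members rested on replicate 2 of both genotypes. The KO P8 libraries were within 1.5 times of each other at 287 of 294 members and the WT P8 libraries at 263. Both KO P8 libraries were above both WT P8 libraries at 291 members, where 40.9% of the 8219 regions with KO P8 of at least 10 CPM show that order. The exceptions were also the 3 members not called at P8. At chr2:32104877-32116760 the levels were 417 and 1757 CPM in WT P8 replicates 1 and 2, and 900 and 4300 CPM in KO P8 replicates 1 and 2. In the same order chr15:64157274-64167811 had 21.1, 257, 19.6 and 675 CPM. The levels of chr9:71471739-71514831 were 5.77, 105, 17.8 and 237 CPM.

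In these 3 the second replicate was over 4 times the first in each genotype, and WT replicate 2 exceeded KO replicate 1. Without KO P8 replicate 2, edgeR's quasi-likelihood test called 3 members lower in KO at P8. At P0 the same intervals had 780 and 901, 60.3 and 62.3, and 74.3 and 62.3 CPM in WT and KO. The cause of the replicate difference was not tested.

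**Figure D5:**
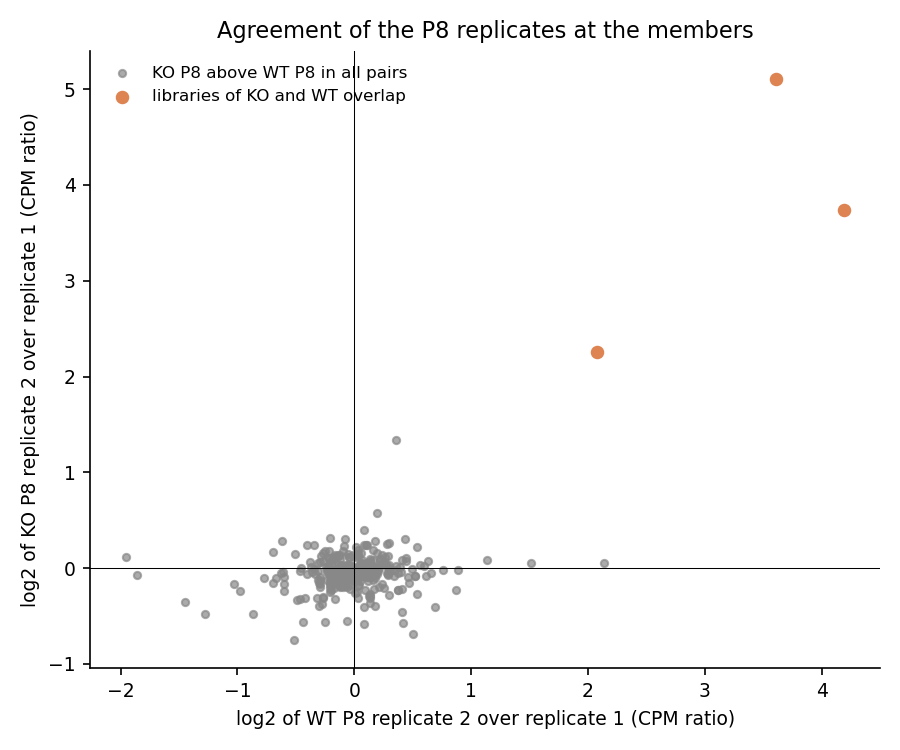
Agreement of the P8 replicates at the 294 members: log2 ratio of replicate 2 to replicate 1 in WT (x axis) and in KO (y axis), in CPM. Grey points, 291 members, have both KO libraries above both WT libraries; the 3 orange points, where the genotypes overlap, are high in replicate 2 of both genotypes.

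The authors' deposited log2 CPM values for the P8 libraries were read at the members too. The KO minus WT difference had a median of 1.53 on the log2 scale and ran from 0.60 to 5.70. It was at least 1 at 271 members, and both KO values were above both WT values at 291. These values are of the same P8 libraries, in which the rule required KO at least 2 times WT. They are therefore only a description, and the same counts over all regions are not given.

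The limits of the rule fell among regions of similar values. Nearest to the minimum level were chr7:108029815-108030065 inside, with 10.3 CPM in KO P8, and chr1:51365418-51370904 outside, with 9.76 CPM. Nearest to the genotype limit at P8 were chr6:112240907-112261876 inside (2.01 times WT P8) and chr11:57701733-57704280 outside (1.98 times). Nearest to the limit on KO age were chr19:39246218-39256909 inside (2.01 times KO P0) and chr7:98130509-98192995 outside (1.98 times). For the WT limit they were chr2:17756439-17756669 inside (0.502) and chr8:127141724-127141937 outside (0.499), and for the P0 limit chr1:192185394-192192057 inside (1.99) and chr1:162669510-162669721 outside (2.00). Failing 1 limit alone kept out 369 regions at the level, 2279 at the genotype limit, 75 at KO age, 73 at WT and 33 at P0.

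Leaving out any 1 of the 4 P8 libraries gave 292 to 300 regions, 264 to 276 of them among the 294. The single P0 libraries cannot be left out. With TMM factors 493 regions met the rule, 292 of them among the 294, and with totals over all deposited intervals, which count a read in several rows, 118 did, 102 of them among the 294. When every limit had to hold for each pair of P8 libraries, 207 of the 294 were left.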

How the data were processed

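Per the submitters' processing notes, the tools were TopHat2 2.1.1, Bowtie 1.1.1, bedtools, cutadapt 1.13 and FastQC 0.10.1, on the genome build GRCm39. How reads with several matches were placed is not given in the sources used here, and such reads can set the level of a repeat interval. Raw read counts were deposited for 1272548 overlapping intervals in 6 libraries, and, for the P8 libraries, the authors' log2 CPM, named TMM. Starts were deposited counted from 0 and are printed counted from 1.

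Overlapping intervals were merged and 1 was kept per region (most reads, ties to the shorter, then the lower start). P8 levels are means of 2 libraries, with the sample SD. Regions were tested with edgeR 4.0.16 in R 4.3.3 (filterByExpr, TMM, quasi-likelihood fit, two-sided, Benjamini-Hochberg, 0.05). On simulated counts the fits recovered 98% of 4-fold and 61% of 2-fold changes for KO against WT at P8, 98% and 37% for KO age, and 99% and 61% for WT age. The simulated tests covered 17646, 24932 and 24977 regions, but changes were planted only in a sample of the better covered ones. A single fixed dispersion was used, so recovery in the real data was not measured. DESeq2 1.42.0, other scalings, no read filter, other limits and leaving out each P8 library were alternatives. Counting intervals are exact binomial 95% intervals.

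Named regions are the 10 highest KO P8 means, the 10 highest KO to WT ratios at P8, the 5 highest KO P8 to P0 ratios, the longest, the shortest and those nearest each limit. Others were picked after their values were seen. Members and lists were chosen with earlier results of these data known. The planned gene and marker lists were not used, since the annotation at hand is of GRCm38.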

Additional observations from a re-analysis of the deposited data

Results flagged for a closer look

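At the 6 members listed below, named for a high ratio or for length, the KO library was below the WT library at P0. Both KO libraries were above both WT libraries at P8 there. A KO P0 level below WT P0 was common, in 112 of all 294 members. Members named only for lying nearest a limit of the rule are not listed here, though some of them had it too. This difference between the ages was not tested, rests on 1 library of each genotype at P0, and is partly set by the rule that chose the members. The log2 ratio of KO to WT at P0 was -0.29 at chr9:98200187-98212590, -1.12 at chr14:6586085-6590007, -0.070 at chr2:17756439-17756669, -0.12 at chr12:79114743-79117022, -0.12 at chr14:6571001-6573488 and -0.40 at chr10:87694860-87763798. All but the first and the last of these had at most 13 reads in either P0 library.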

How the results depend on the processing

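The number of gaining regions went from 294 to 493 with TMM factors, to 118 with totals over all deposited intervals, to 575 with a fold limit of 1.5 and to 133 with a fold limit of 3. Leaving out 1 P8 library gave 292 to 300, of which 264 to 276 were among the 294. At P8, with edgeR's quasi-likelihood test, 4227 regions were called higher and 3875 lower. DESeq2 called 2704 and 2216, and without a read filter 2139 were called lower. Leaving out 1 library gave 3098 to 3941 higher and 2791 to 3693 lower, and for members 291 to 294 higher and 0 to 3 lower. For KO P8 against KO P0, 7809 were higher and 9407 lower. Library totals gave 4937 higher, DESeq2 4316 and 3831, and leaving out 1 library 5645 to 7948 higher and 5628 to 9064 lower, with 287 to 294 members higher and 0 to 2 lower. The lowest counts of lower calls, 5628 and 5711, came without WT P8 replicate 1 and 2. For WT P8 against WT P0, 8519 were higher and 11292 lower. Library totals gave 5450 higher, with 144 members higher and 32 lower (223 and 0 with TMM). DESeq2 called 4948 and 4637, and leaving out 1 library gave 5720 to 9323 higher and 5597 to 12312 lower, the lowest, 5597 and 5978, without WT P8 replicate 1 and 2. With the replicate block at P8, edgeR called 4607 higher and 4384 lower and 294 members higher. The P8 numbers are only numbers in the labels. The replicate 1 minus 2 deviations of WT and KO had a correlation of 0.356 across 8228 regions, which are not independent. The cause of these shifts was not tested. The P0 groups of 1 library, and few WT reads at short members, limit the precision of their ratios.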
